A study of Mus with 5 samples.

Results

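The T cell receptor and the proteins next to it in its signalling path are described here through the binding of BATF and RARα at 10 of their genes in mouse CD8 T cells. The genes were Cd3e, Cd247, Cd8a, Cd8b1, Lck, Zap70, Lat, Lcp2, Cd5 and Cd6. A peak was included when the gene names that the authors assigned to it held at least 1 of these 10. This gave 59 of 15812 BATF peaks without retinoic acid (RA), 30 of 9899 BATF peaks with RA, 4 of 1172 RARα peaks without RA and 0 of 597 RARα peaks with RA.

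The T cell receptor has no enzyme activity of its own. Its CD3 chains and the zeta chain carry tyrosines that the kinase LCK phosphorylates after ligand binding, and LCK is brought there by the CD8 coreceptor. The kinase ZAP70 then docks on the phosphorylated chains and phosphorylates the scaffolds LAT and SLP-76, on which the downstream enzymes assemble. CD5 and CD6 are surface receptors that temper this signal. BATF is a transcription factor of the AP-1 family that is induced when T cells are activated. RARα is a nuclear receptor that binds DNA and changes its partners when it binds RA.

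The cells came from the spleen of WT mice. They had 24 h of activation by antibodies to CD3 and CD28 together with IL-2, followed by 24 h of rest in IL-2 at 100 U/ml. For the last 1 h they were kept with 50 nM RA or without it (control). The labels call the cell type naive CD8 T cells although all had been activated, and their treatment entries name IL-7, IL-8, IL-9 or IL-10 for different samples in place of IL-2. Chromatin immunoprecipitation followed by sequencing (ChIP-seq) was done with antibodies to RARα or BATF, or with normal rabbit IgG. Each of the 4 peak lists was called on 2 pooled ChIP files against 1 IgG file that served all 4 lists. The sources used here do not say whether the 2 files are biological replicates, nor whether the IgG cells received RA. Every difference below therefore compares single pools, with no spread between replicates and no test of RA. The BATF RA pool held 16424269 fragments, 71.1% of the 23110180 in the BATF control pool, whereas the RARα RA pool held 99.2% of the 22655611 fragments of its control. The IgG file held 11410673.

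Each peak has a pileup, which is the number of fragments covering its summit, and a fold enrichment, which is that pileup over the local IgG level after 1 is added to both. A depth-scaled pileup is the number of fragments at the summit divided by the total of its pool. For a share of peaks the interval given is the Wilson 95% confidence interval. For a ratio of depth-scaled pileups, RA over control, it is the exact 95% interval, and both cover counting error only.

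All 10 genes had at least 1 BATF peak in the control list, where 46.2% of 21896 protein-coding genes did, and all 10 had at least 1 with RA, where 36.4% did. The number of BATF control peaks ran from 1 at Cd3e to 20 at Cd8b1. Of the 59 peaks, 32 touched the gene body, 9 lay outside it within 10 kb and 18 lay farther away, up to 67556 bp. Promoter was the class of 21 peaks (35.6%, interval 24.6 to 48.3), against 58.7% of the whole list. Another 25 were intergenic (42.4%, interval 30.6 to 55.1, against 18.1%), 11 were in introns (against 20.1%) and 2 in exons (against 3.04%). The share of promoter peaks was 47.2% (17 of 36, interval 32.0 to 63.0, which holds 58.7%) when the 23 peaks of the Cd8a and Cd8b1 locus were left out. In both BATF lists the intergenic peaks here named 3 to 17 genes each and the promoter peaks 1 or 2. Choosing peaks by gene name thus gives an intergenic peak more ways to be included. The whole list counts each peak once, so these class shares are not compared like for like. The median fold enrichment was 5.51 at the 10 genes and 5.40 over all BATF control peaks. With RA the medians were 5.00 and 5.29, and 17 of the 30 peaks were classed promoter (56.7%, interval 39.2 to 72.6, against 64.6%) and 7 intergenic (against 16.2%).

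The plot of fold enrichment by gene shows that the highest values came from single peaks at Lck, Cd247 and Lcp2, while the many peaks at the Cd8 genes were lower.

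**Figure D1:**
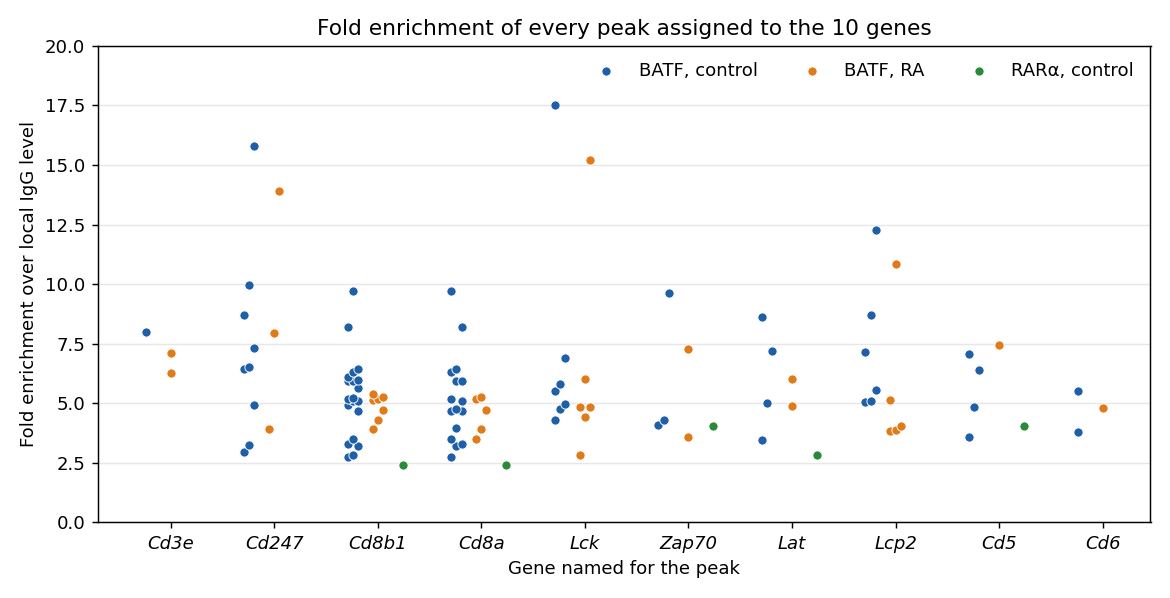
Fold enrichment over the local IgG level (vertical axis) of every peak assigned to each gene (horizontal axis) in the BATF control, BATF RA and RARα control lists, 1 point per peak; peaks assigned to both Cd8b1 and Cd8a are drawn at both. The BATF control peaks reach 17.5 at Lck, and the RARα control peaks lie between 2.39 and 4.04.

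Cd3e encodes the CD3 epsilon chain. It had a single BATF control peak, 2936 bp wide, at chr9:45007207-45010142 (mm10), which covered the higher-coordinate end of the gene where the annotation puts its transcript start. Its summit held 40 fragments at a fold enrichment of 7.98. With RA the same stretch held 2 narrower peaks. The one at the transcript start, chr9:45009161-45009872, had 25 fragments and a fold enrichment of 7.09, and the one in the gene body, chr9:45008374-45008872, had 18 fragments and 6.28. Scaled to depth, the higher RA summit was 0.879 times the control summit (interval 0.511 to 1.49), so a difference was not detectable at this depth.

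Cd247 encodes the zeta chain, which carries most of the signalling tyrosines of the receptor. Its main BATF peak lay about 10 kb inside the gene at chr1:165788074-165792177, was classed promoter, and fell in the first intron of a non-coding transcript in the detailed annotation. At 4104 bp it was among the widest of the list. The control summit held 79 fragments at a fold enrichment of 15.8, a value that 3.23% of all BATF control peaks reached. The RA summit held 50 fragments at 13.9, a depth-scaled ratio of 0.891 (interval 0.612 to 1.29). Of the 9 control peaks of Cd247, 3 had an overlapping RA peak. The others retained were 67556 bp below the gene (fold enrichment 9.98 in the control and 7.93 with RA) and in an intron at chr1:165844753-165845661 (6.52 and 3.91). The 6 without an overlapping RA peak included intergenic peaks 57103 and 49540 bp below the gene, with fold enrichments of 8.70 and 7.31, and a peak of 6.45 at chr1:165780079-165780717 on the lower-coordinate end of the gene itself. The authors' annotation classed that last peak as intergenic.

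Cd8a and Cd8b1 encode the alpha and beta chains of the CD8 coreceptor and are neighbours on chromosome 6. Of the peaks at the 10 genes, 23 of 59 in the control and 8 of 30 with RA lay here, and intergenic peaks here were assigned to both genes. The peaks were many and moderate, and their median fold enrichment was 5.11, or 4.92 in the RA list. Their local IgG level was also raised, with a median of 1.76 times the background against 1.41 times at the other 8 genes. The promoter peak at the lower-coordinate end of Cd8b1, chr6:71321537-71323274, had 36 control and 25 RA fragments, a depth-scaled ratio of 0.977 (interval 0.562 to 1.67). The promoter peak at the lower-coordinate end of Cd8a, chr6:71373471-71373929, had 28 and 20 fragments, a ratio of 1.01 (interval 0.537 to 1.85). Both ratios were near 1, but their intervals were wide and a difference was not detectable at this depth. The fold enrichment was lower with RA (6.09 and 4.31 at Cd8b1, 4.75 and 3.48 at Cd8a). The local IgG level relative to background was higher at the RA summits (2.49 times at both) than at the control summits (1.75 and 1.76 times). Each gene had another control peak classed promoter. The one at Cd8a, chr6:71374359-71375589, had 27 fragments, a fold enrichment of 3.95 and no overlapping RA peak. The one at Cd8b1, chr6:71323566-71326136, had 36 control and 23 RA fragments, a ratio of 0.899 (interval 0.509 to 1.56). The strongest RA peak of Cd8b1, chr6:71332056-71332516, lay in an exon at a fold enrichment of 5.38.

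The 35934 bp between the genes held 11 BATF control peaks, which covered 8893 bp with fold enrichments from 2.74 to 8.19, and 4 RA peaks, which covered 2118 bp with fold enrichments from 3.91 to 5.27. The strongest control peak of this stretch, chr6:71352767-71354367, had 53 fragments at 8.19. The RA summit there had 24 fragments at 4.70, a ratio of 0.637 (interval 0.376 to 1.05). At chr6:71341102-71341964 there were 41 control and 34 RA fragments, fold enrichments of 5.93 and 5.18 and a ratio of 1.17 (interval 0.718 to 1.88). The strongest BATF control peak of the locus, 14218 bp below Cd8b1 at chr6:71307975-71308570, had 37 fragments and a fold enrichment of 9.72, and no RA peak lay within 5 kb of it. Of the 11 control peaks between the genes, 4 were overlapped by an RA peak, where 54.4% of all BATF control peaks were, and 9 had one within 5 kb, where 69.9% did. The map of the locus shows this cluster in each list.

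**Figure D2:**
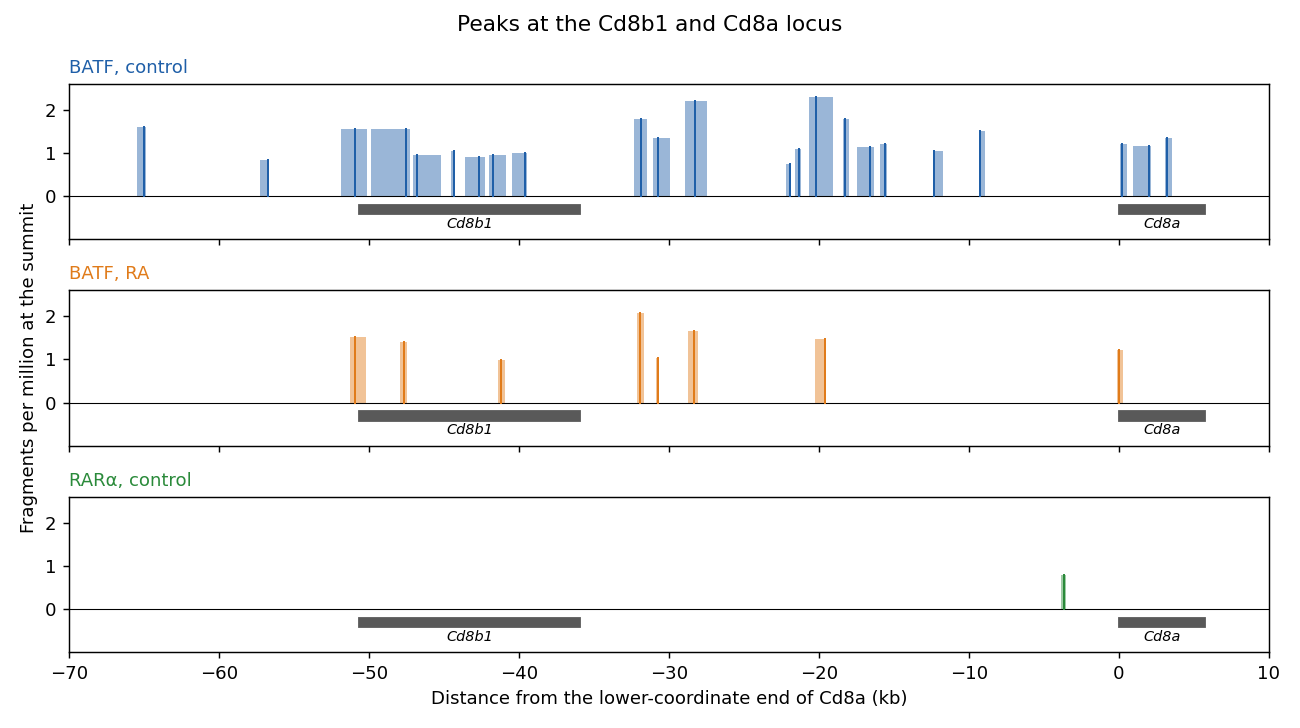
Peaks assigned to Cd8b1 or Cd8a in 3 lists, by distance from the lower-coordinate end of Cd8a (kb, horizontal axis); box width is peak width, and box height and the dark line at the summit give the pileup per 1000000 fragments of the pool (vertical axis). Grey bars are the genes: 11 BATF control peaks and 4 BATF RA peaks lie between them, and the single RARα control peak lies 3557 bp from Cd8a.

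Lck encodes the Src family kinase that starts receptor phosphorylation. It carried the strongest BATF peak of all 10 genes, in an intron at chr4:129565133-129566201, where 70 control fragments gave a fold enrichment of 17.5 and 45 RA fragments gave 15.2. The ratio was 0.905 (interval 0.608 to 1.33). A fold enrichment this high was reached by 2.42% of BATF control peaks and, for the RA value, by 3.48% of BATF RA peaks. BATF peaks also covered the starts of 2 annotated Lck transcripts. The inner one, chr4:129558283-129558813, had fold enrichments of 4.97 and 4.40. The outer one, chr4:129571231-129574269, was 3039 bp wide and had 5.53 in the control, while with RA it was covered by separate peaks of 4.84 and 2.81. In all, 5 of the 7 Lck control peaks had an overlapping RA peak. A stronger BATF peak stood 6525 bp from Lck, with fold enrichments of 19.0 and 15.5, but the annotation assigned it to Fam167b alone and it is not among the 59.

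Zap70 encodes the kinase that docks on the phosphorylated chains. Its 3 BATF control peaks all lay in the first part of the gene and were all classed promoter. The peak 5 kb inside the gene, chr1:36766327-36767781, lies on the first exon of an alternative transcript in the detailed annotation and had 38 control and 22 RA fragments, with fold enrichments of 9.63 and 7.28 and a ratio of 0.815 (interval 0.459 to 1.41). The peak on the lower-coordinate end of the gene, chr1:36761526-36763195, had 47 control and 18 RA fragments. Its ratio of 0.539 (interval 0.295 to 0.946) was 1 of 26 among the overlapping pairs to have an interval below 1, and over the whole list 7.36% of such intervals did. The local IgG level at this control summit was 3.50 times the background, the highest at any of the 59 peaks, which left the fold enrichment at 4.31.

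Lat encodes the membrane scaffold that ZAP70 phosphorylates. Both of its promoter peaks recurred with RA. The peak at the transcript start, chr7:126368543-126369922, had 50 control and 32 RA fragments and a ratio of 0.901 (interval 0.559 to 1.43). The peak inside the gene, chr7:126367203-126368115, had 37 and 18 fragments and a ratio of 0.685 (interval 0.367 to 1.23). The 2 intergenic control peaks, 9675 and 23933 bp below the gene, had fold enrichments of 3.46 and 5.02 and no RA peak within 5 kb.

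Lcp2 encodes the cytosolic adaptor SLP-76. Its strongest BATF peak was distal, 35649 bp below the gene at chr11:34010684-34011279, with 62 control and 41 RA fragments, fold enrichments of 12.3 and 10.8 and a ratio of 0.930 (interval 0.611 to 1.40). The peak at the gene start, chr11:34046761-34051029, was the widest of the 59 at 4269 bp and had a fold enrichment of 8.69. With RA it was covered by 3 separate peaks with fold enrichments of 5.12, 3.85 and 4.02. The highest of their summits was 0.818 times that of the control (interval 0.479 to 1.37). These 2 summits lay at different positions in the wide peak, 34049026 with RA and 34047305 in the control. The RA peak over the control summit, chr11:34046939-34047420, had 17 fragments against 43 in the control. An intronic peak at chr11:34063741-34064421 had 33 control and 28 RA fragments and fold enrichments of 5.56 and 3.88. Its ratio of 1.19 (interval 0.695 to 2.04) was the highest of the 26 overlapping pairs.

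Cd5 and Cd6 encode related scavenger receptor family members and lie near each other on chromosome 19. BATF peaks at both sat at the higher-coordinate end, at the annotated transcript starts. At Cd5 the main peak, chr19:10738211-10739379, had 42 control and 25 RA fragments, a ratio of 0.838 (interval 0.489 to 1.41). Its fold enrichment was 7.08 in the control and 7.43 with RA, which made Cd5 the only one of the 10 genes whose best BATF peak had a higher fold enrichment with RA. The local IgG level was 1.75 times the background at that control summit and 1.23 times at the RA summit. Of the 4 control peaks of Cd5, 3 had no overlapping RA peak, among them promoter peaks with fold enrichments of 6.40 and 4.84. At Cd6 the main peak, chr19:10829339-10830262, had 30 and 19 fragments and fold enrichments of 5.51 and 4.80. The maps of the 8 genes outside the Cd8 locus show where the peaks of the 3 lists lie relative to each gene.

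**Figure D3:**
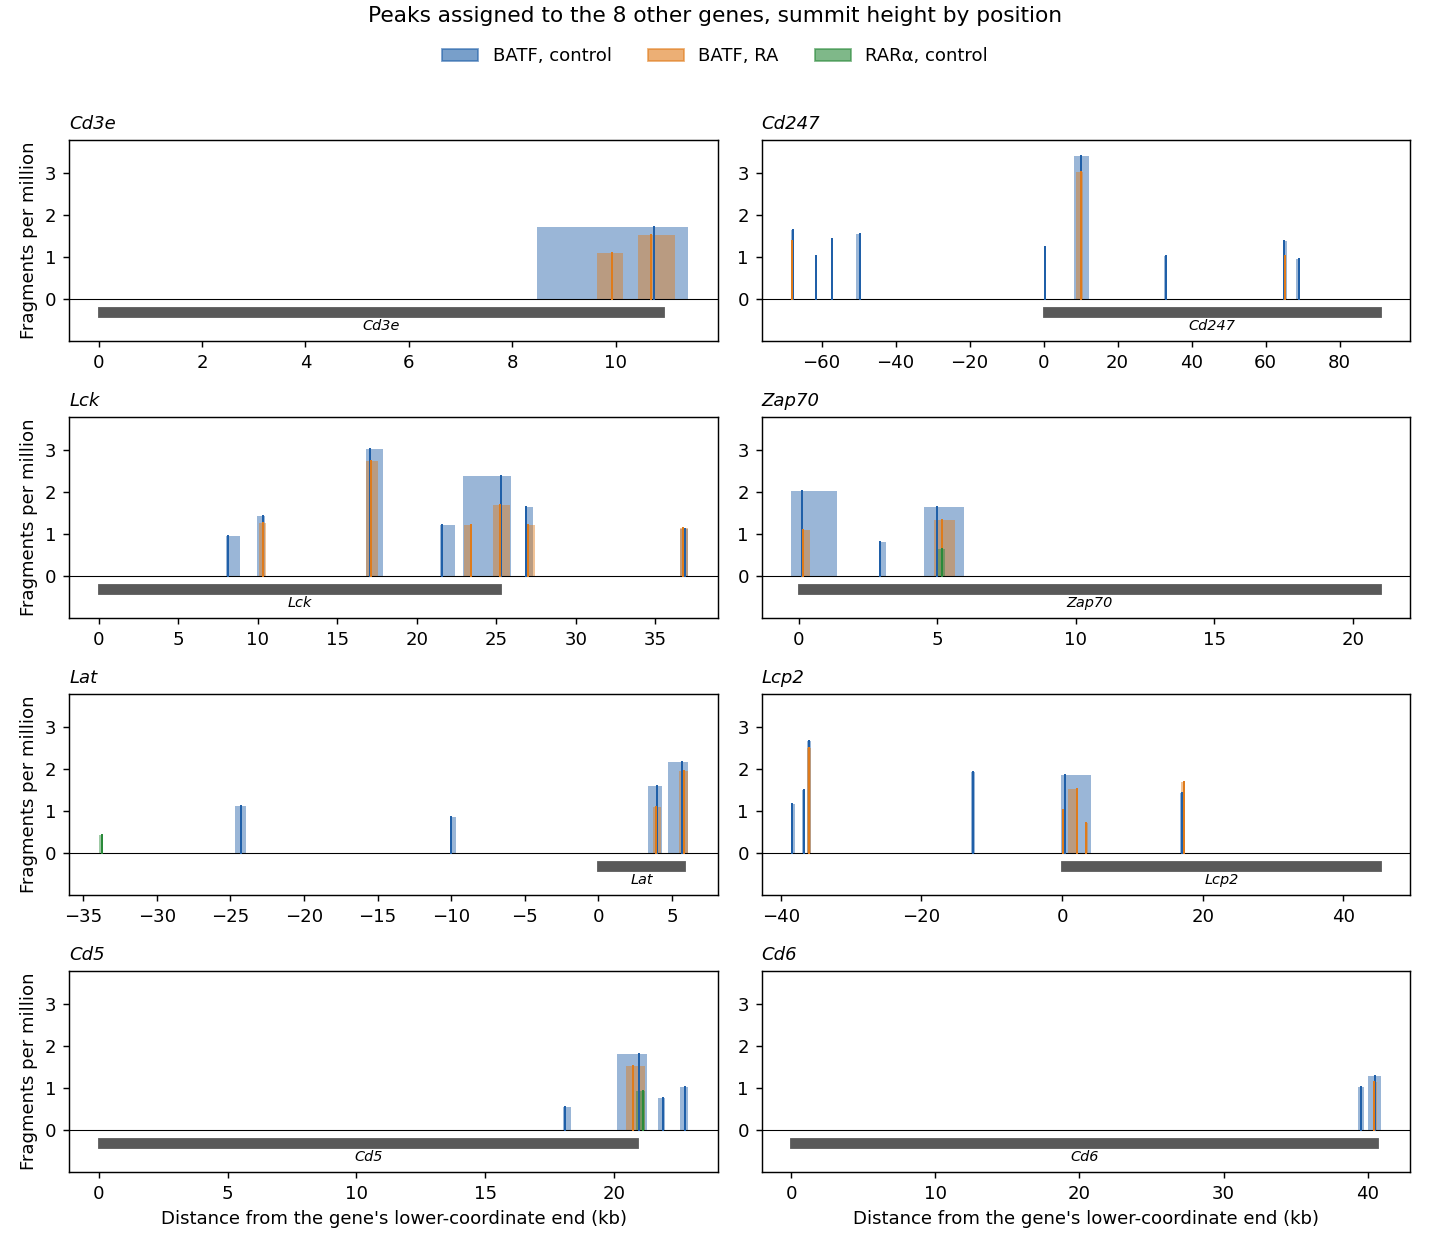
Peaks of the BATF control, BATF RA and RARα control lists at the 8 genes outside the Cd8 locus, by distance from each gene's lower-coordinate end (kb, horizontal axis, own scale per gene); box width is peak width, and box height and the dark line at the summit give the pileup per 1000000 fragments of the pool (vertical axis). RARα control peaks appear at Zap70 and Cd5 inside a BATF control peak and at Lat 33669 bp from the gene.

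To ask how BATF binding at these genes compared between the conditions, peaks of the 2 BATF lists were paired. Each of the 30 RA peaks overlapped a control peak, where 93.6% of all BATF RA peaks did. Of the 59 control peaks, 26 had an overlapping RA peak (44.1%, interval 32.2 to 56.7), against 54.4% of the whole list. Counting RA peaks within 5 kb, the distance used in the study's methods, 47 did (79.7%, interval 67.7 to 88.0, against 69.9%). The larger distance lets neighbours in a dense cluster stand for each other, as at the Cd8 locus, where 8 of 23 peaks were overlapped (34.8%, interval 18.8 to 55.1) but 19 had an RA peak within 5 kb. At the other 8 genes 18 of 36 were overlapped (50.0%, interval 34.5 to 65.5). The length covered by BATF peaks at the 10 genes was 59271 bp in the control and 18618 bp with RA, or 31.4%, against 43.1% over the whole lists.

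At the 26 overlapping pairs, with the highest RA summit taken where several overlapped, the fold enrichment was lower with RA in 24 (92.3%, interval 75.9 to 97.9), where 75.2% of pairs over the whole lists were. The median ratio was 0.848 at the 10 genes and 0.830 over all. The lower depth of the RA pool by itself lowers the fold enrichment, since 1 is added to both terms, and would give a median ratio of 0.959 and a lower value at all 26. Of the 26 pairs, 22 lay below the ratio given by depth alone (84.6%, interval 66.5 to 93.9, against 70% of all pairs). In depth-scaled pileup, 21 pairs were lower with RA (80.8%, against 76.7%), with a median ratio of 0.885 at the 10 genes and 0.844 over all. With the 47 pairs of nearest midpoint within 5 kb, the planned pairing, the excess over the whole list was not seen. The fold enrichment was then lower with RA in 31 (66.0%, interval 51.7 to 77.8, against 66.9%). The depth-scaled pileup was lower in 25 (53.2%, interval 39.2 to 66.7, against 66.5%), with a median ratio of 0.977 at the 10 genes and 0.885 over all. In this pairing a control peak without an overlapping RA peak took that of a neighbour, so 1 RA peak could enter several pairs. At Cd5 all 4 control peaks took its 1 RA peak. The intervals treat such pairs as separate, and these pairs do not compare the same site. Among the 26 overlapping pairs the interval held 1 in 25, as the plot of the ratios shows, and lay above 1 in 0 of them (0.325% of all pairs).

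**Figure D4:**
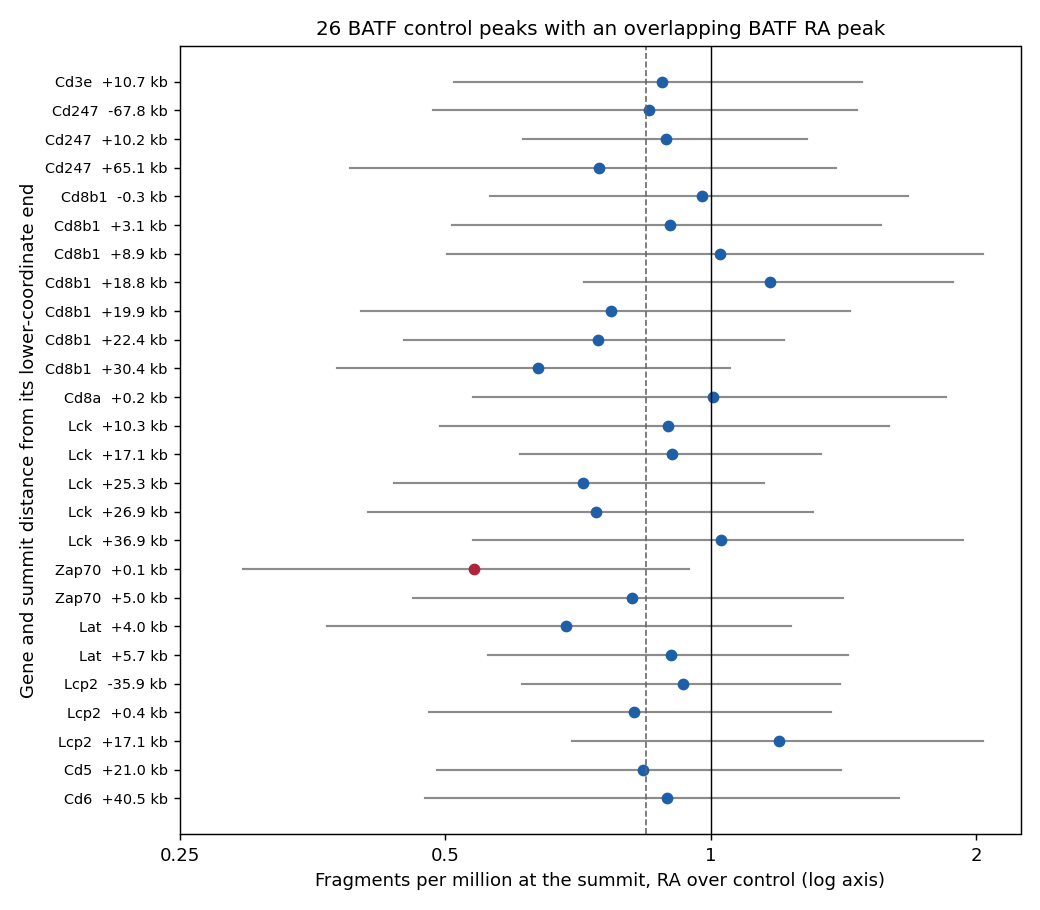
Ratio of depth-scaled pileups, RA over control (horizontal log axis), for the 26 BATF control peaks with an overlapping RA peak, named by gene and by the distance of the control summit from the gene's lower-coordinate end; lines are exact 95% intervals for counting error. The solid line marks 1 and the dashed line the median of all overlapping pairs, 0.844; the red point is the Zap70 peak whose interval, 0.295 to 0.946, lies below 1.

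The 33 control peaks without an overlapping RA peak were weaker, with a median fold enrichment of 4.91 (2.74 to 9.72) against 6.47 (4.28 to 17.5) for the 26 that had one. Over the whole list the medians were 4.52 and 6.72. Of the 33, 15 were at the Cd8 locus and 18 at the other 8 genes. When pileups were scaled to the depth of the RA pool, 52 of the 59 peaks still passed the cutoff of the RA list (88.1%, interval 77.5 to 94.1, against 95.1%), among them 26 of the 33, while 7 of the 33 did not. Those 26 make up 44.1% of the 59 peaks, and 41.2% of the whole control list passed in this way without an overlapping RA peak. For each of the 33, the highest RA pileup that would have remained uncalled was computed from the local IgG level. Even at that pileup the interval of the ratio lay below 1 at 5 of them (10.1% of such peaks in the whole list). These were the peaks with fold enrichments of 9.72 below Cd8b1, 8.70 and 7.31 below Cd247, 5.93 between the Cd8 genes (chr6:71354997-71355400) and 5.05 below Lcp2 (chr11:34034036-34034592). The upper bound was 0.722 at the first, with at most 9 RA fragments against 37, and 0.947 at the last. At the other 28 a difference was not detectable at this depth. This bound takes a summit above the calling limit as called, which the peak caller does only when the stretch is also long enough.

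**Figure D5:**
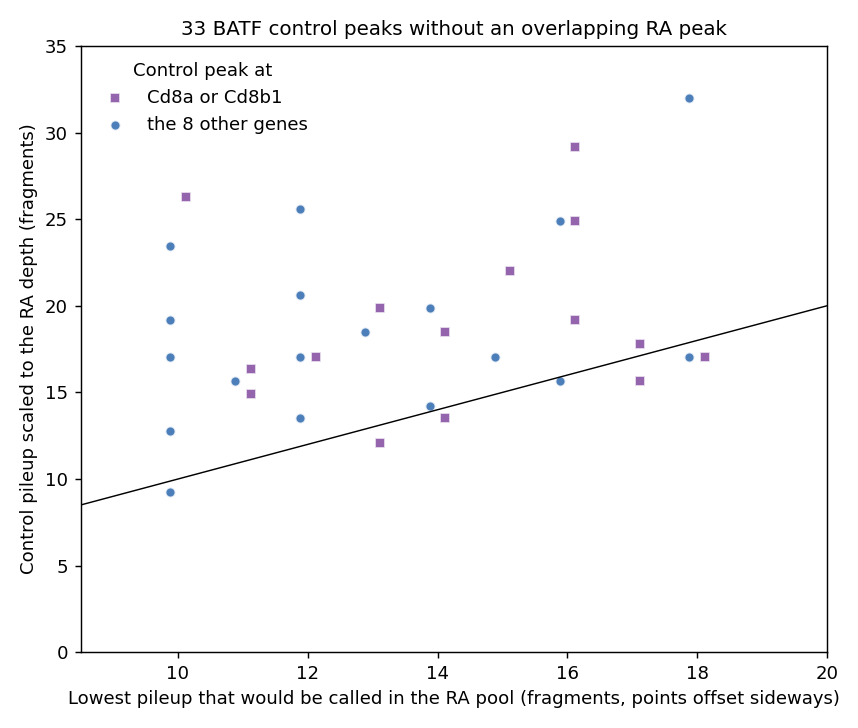
The 33 BATF control peaks without an overlapping RA peak: control pileup scaled to the depth of the RA pool (fragments, vertical axis) against the lowest pileup that would be called there given the local IgG level (fragments, horizontal axis). Squares are peaks at Cd8a or Cd8b1 and circles those at the 8 other genes; 7 points lie below the line of equality and 26 on or above it.

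RARα was called at 5 of the 10 genes in the control (6.86% of protein-coding genes were) and at 0 of 10 with RA (3.06%), through 4 peaks in all. The RARα lists were called with a cutoff of 0.001 on the p-value, not on the q-value. At a -log10 q of at least 2 only the peaks at Zap70 and Cd5 remained. The peak named for Cd8a and Cd8b1 had a -log10 q of 0.011 and the peak named for Lat 0. The share of all genes at that limit is not given here. Of the 4 RARα control peaks, 2 were classed promoter, against 19.5% of the list. The peak at Zap70, chr1:36766770-36767073, was classed promoter and had 15 fragments and a fold enrichment of 4.02. It lay within the BATF control peak of 9.63. The peak at Cd5, chr19:10738930-10739313, was classed promoter too, and had 21 fragments and a fold enrichment of 4.04. It lay within the BATF control peak of 7.08 at the transcript start. Its annotation also named A430093F15Rik, and its summit was 212 bp beyond the higher-coordinate end of Cd5. These 2 peaks shared their position with BATF. The remaining 2 did not. The peak named for both Cd8a and Cd8b1, chr6:71369542-71369870, lay 3557 bp below Cd8a in the stretch between the genes, and its annotation named 5 genes. It had 18 fragments and a fold enrichment of 2.39, and was 3601 bp from the nearest BATF control peak. The local IgG level there was 2.41 times the background, and 95.5% of RARα control peaks had a fold enrichment at least as high. The peak named for Lat, chr7:126329886-126330158, lay 33669 bp below it, had 10 fragments and a fold enrichment of 2.83, and was 9016 bp from the nearest BATF peak. Its annotation named 7 genes. Thus 2 of the 4 overlapped a BATF control peak, where 53.4% of all RARα control peaks did, and 3 of the 4 had one within 5 kb, where 61.9% did.

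At Cd3e, Cd247, Lck, Lcp2 and Cd6 no RARα peak was assigned in either condition. The nearest RARα control peak to Cd3e was 11797 bp away in an exon of Cd3d, which encodes CD3 delta, and that to Cd6 was the Cd5 peak, 50026 bp away. None of the 4 RARα control peaks had an RARα RA peak within 5 kb, and 10.2% of all RARα control peaks had one. The nearest RARα RA peak to Cd5 was 513518 bp away and that to Cd247, in an intron of Pou2f1, 82123 bp. The calling limit bounds what this absence shows. In the RA pool a summit of 10 fragments at the Zap70 site, 12 at Cd5, 17 at the Cd8 site or 9 at the Lat site would have been called, against control summits of 15, 21, 18 and 10. Just under these limits the ratios would have been 0.605 (interval 0.233 to 1.48), 0.528 (interval 0.230 to 1.15), 0.896 (interval 0.427 to 1.86) and 0.806 (interval 0.277 to 2.27). A loss of RARα was therefore not detectable at any of the 4 sites at this depth.

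Among 45 other genes of the receptor pathway, 38 had a BATF control peak (46.2% of protein-coding genes), 36 a BATF RA peak (36.4%), 13 an RARα control peak (6.86%) and 1 an RARα RA peak (3.06%). The highest BATF fold enrichments in the control list were at Malt1, which encodes the paracaspase downstream of the receptor (33.6 in the control and 34.9 with RA), Grap2, which encodes the adaptor GADS that joins SLP-76 to LAT (29.8 and 24.1), and Ubash3b, which encodes the phosphatase STS-1 (25.3 and 29.8). In both lists all 3 exceeded the best peak of every one of the 10 genes. Of the 36 genes with a BATF peak in both lists, the best peak had a lower fold enrichment with RA at 28 and a higher one at 8. The same count over all genes is not given here. Among all overlapping BATF pairs the fold enrichment was lower with RA in 75.2%, and the lower depth of the RA pool by itself lowers it. The best peaks of a gene in the 2 lists could also be different sites, as at Ptprc and Rasgrp1. At Cblb, which encodes a ubiquitin ligase that restrains T cell activation, the best value was 17.4 in the control and 26.7 with RA. The genes with no BATF peak in either list were Cd4, the T cell receptor constant genes Trac, Trbc1 and Trbc2, Tespa1, Sh2d1a and Cbl.

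RARα control peaks at the pathway genes outside the 10 numbered 18, of which 14 overlapped a BATF control peak (53.4% of all RARα control peaks did). The best was at Prkcq, which encodes protein kinase C theta, with 3 peaks of which the strongest had a fold enrichment of 5.67 in an intron. Rasgrp1 (4.27), Ptprc (4.03), Fyn (4.02) and Cblb (4.02) reached values close to those of Zap70 and Cd5. Nck1 had 3.61, Nck2 3.35, Ptpn6 2.93, Sos1 2.77, Fyb 2.77, Grap2 2.62 and Cd3d 2.52. The single RARα RA peak was at Sos1, in an intron, with 2.53.

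The labelled cell type could be read from these lists only through binding, which is not expression. BATF control peaks were assigned to Cd8a and Cd8b1 and none to Cd4 or Zbtb7b, which mark CD4 T cells, nor to Lyz2, Csf1r or Ncr1, which mark myeloid and NK cells. Other markers of such cells did have BATF control peaks. Itgam, also a myeloid marker, had 1 and Klrb1c, also an NK marker, had 6, while Cd79a and Ms4a1, which mark B cells, had 1 and 2. Of the 59 control peaks, 32 were assigned to more than 1 gene, so a peak listed for a gene here was not shown to act on it. The annotation placed 6 of the 59 in a repeat (8.8% of the list) and 0 of the 4 RARα control peaks (23.3%).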

How the data were processed

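ChIP-seq was described in 4 peak lists and 1 IgG sample. Per the labels and the file headers, the authors aligned reads with Bowtie2 to mm10, pooled 2 files per list, called peaks with MACS 2.2.7.1 against 1 IgG file (p-value cutoff 0.001 for RARα, 1e-05 for BATF) and annotated them (HOMER is among the tools listed). The deposited pileup is a signal that counts fragments over a peak's summit. For BATF control alone the authors' pileup came in steps of 0.9875 per fragment and was divided by this step. The deposited fold enrichment is a ratio, pileup plus 1 over IgG level plus 1, from which the IgG level was recovered. The deposited p-value and q-value are on the -log10 scale, and the Poisson p recomputed from pileup and IgG level differed by a median of at most 0.00111.

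Members were found by splitting the gene column. The 10 genes and the 45 other pathway genes were chosen with earlier results of these data known. Named were all 10, the other genes with an RARα peak, the 3 of highest BATF control fold, and at each of the 10 the strongest peaks and every RARα peak. The rule also covered peaks within 1 kb of the 10 genes, but not all of these are described. Many of those left out are control peaks without an overlapping RA peak. Some peaks outside this rule, and Cblb with RA, were named after their values were seen. A few genes that the rule or the marker list would name are not reported here. Gene positions came from RefSeq for GRCm38.p6, without strand. No sequence is shown. Pairing by nearest midpoint within 5 kb was the planned main choice, while the text gives overlapping pairs with the highest RA summit, added after seeing the data. The pairing and interval steps were tested on simulated data. Python 3.11.15 was used with scipy 1.17.1, pandas 2.3.3, numpy 2.4.6 and, for plots, matplotlib 3.10.9. Alternatives covered thresholds, distances, merging, depth and leaving out the Cd8 locus.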

Additional observations from a re-analysis of the deposited data

How the results depend on the processing

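No paired analysis was possible because each condition has 1 pooled list and no result comes from a test. Of 57 alternative settings, 38 kept their value within its interval or within 1.5 times the count, 19 moved it and 0 reversed it. Some of the 38 could not have moved. Stricter limits or merging could only leave the 0 RARα RA peaks at 0. Shorter distances or the stricter p could only leave 0 of the RARα control peaks with an RARα RA peak. The 59 BATF control peaks became 37 at a fold enrichment of at least 5, 37 when peaks under 1 kb apart were merged, 36 without the Cd8 locus and 114 when every peak within 100 kb was counted. The 30 BATF RA peaks became 19 at a -log10 p of at least 10, 15 at that fold enrichment and 61 within 100 kb. The 4 RARα control peaks became 2 at a -log10 p of at least 5, 2 at a -log10 q of at least 2 (Zap70 and Cd5 in both cases) and 0 at a fold enrichment of at least 5, and the 0 RARα RA peaks became 1 within 100 kb. The share of control peaks recurring in the RA list within 5 kb, 79.7%, became 59.3% within 1 kb, 44.1% by overlap, 62.2% at the stricter p and 50.0% by overlap among peaks that pass at the RA depth. The whole list had 69.9% within 5 kb and 54.4% by overlap. The value of the 10 genes thus lay above the whole list by the first measure and below it by the second. Both differences were within counting error, since the intervals, 67.7 to 88.0 and 32.2 to 56.7, hold the whole-list values. The labels do not count this change of side as reversed, and the overlap setting is among those that moved. The share of RARα control peaks near BATF, 75% against 61.9% of the whole list, became 100% of 2 peaks at the stricter p and 100% of 3 within 10 kb of the gene. The share of pairs with lower fold enrichment in RA was 66.0% at 5 kb and became 92.3% for overlapping pairs, whether the nearest or the highest RA summit was taken. Counts near transcript starts and motif windows were not run, since strand and sequence were not used here. Counting error is the only error measured. Alternatives on depth, on the Cd8 locus and on the highest summit were chosen after seeing the data.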

Other observations

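Some wide BATF peaks of the control list were recorded as separate peaks with RA. The control peaks at Cd3e, Lcp2 and the outer Lck transcript start, 2936, 4269 and 3039 bp wide, were each covered by 2 or 3 RA peaks. These were 3 of the 26 overlapped control peaks, and the share over the whole list is not given here. Wide control peaks at Cd247 (4104 bp) and Cd8b1 (2571 bp) were each overlapped by 1 RA peak. The BATF RA pool held 71.1% of the control fragments, and the effect of depth on the number and width of peaks was not tested. The median width of the peaks at the 10 genes was 705 bp in the control and 498 bp with RA, against 609 and 460 bp over the whole lists.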
